A study of Macaca fascicularis with 20 samples.

Results

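High-numbered miRNAs are those that the public miRNA registry named late, with a number of 1000 or more, in the fetal macaque visual cortex. A name was taken when it was listed in both deposited tables used here and had at least 500 counts summed over all their libraries. The 14q32 cluster names miR-1185, miR-1193 and miR-1197 and the name miR-3613 were left out. This chose 95 of the 828 names in both tables. Each name has a 5p and a 3p arm, cut from the opposite strands of its hairpin, which gave 190 arms. Of these, 150 passed a filter on low counts and were tested among 1139 arms of all miRNAs. Every name kept at least 1 tested arm, 55 kept both and 40 kept 1. The names were thus chosen by their summed counts, and the levels below are a description. The names just inside the threshold were miR-2278, miR-3913 and miR-1295 with 521, 511 and 509 counts, and those just outside were miR-1257 with 496, miR-1235 with 471, and miR-1253 and miR-4304 with 463 each.

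Registry numbers follow the order of discovery. Abundant and deeply conserved miRNAs were mostly found early, so later numbers hold many weakly expressed and lineage-restricted miRNAs. They also hold names that were later withdrawn because their reads came from transfer RNA, small nucleolar RNA or other abundant RNAs. A miRNA is cut from a hairpin transcript by Drosha and Dicer, after which usually the strand of 1 arm is kept in an Argonaute protein and the other is degraded. A mirtron is a short intron that enters this pathway through splicing instead of Drosha. In the developing cortex, miRNAs act on the division of radial glia and on the maturation of neurons.

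Small RNA had been sequenced on the SOLiD platform from laser-cut regions of the cortex of Macaca fascicularis, the crab-eating macaque, with no treatment or genotype named in the labels. The 7 regions were the ventricular zone (VZ_17, VZ_18), where radial glia divide, the outer subventricular zone (OSVZ_18, and an apical and a basal sublayer of area 17, OSVZ_17int and OSVZ_17ext), a thick germinal layer of primates, and the cortical plate (CP_17, CP_18), where young neurons settle. Areas 17 and 18 are visual areas. Each region had 1 library of embryonic day 80 (set 1, replicate 1) and 1 of embryonic day 79 (set 2, replicate 2), which gave 4 VZ, 6 OSVZ and 4 CP libraries. No animal is named for any library, so a p-value here reflects only how these libraries scatter, which may be partly technical. The day, the table and any shared handling of a set cannot be told apart. The third labelled set was not analysed here.

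Library totals ran from 3603478 to 9517217 counts. No molecular identifiers were named, so reads copied by PCR from 1 molecule were counted apart, and counting intervals do not cover this. Radial glial and neuronal markers followed the region labels. Both arms of the radial glial miR-92b summed to 25995 to 52642 counts scaled to a common library total (CPM, with TMM factors) in VZ and 523 to 1098 CPM in CP, and 7 neuronal arms summed to 3582 to 9651 CPM in CP against 329 to 1618 CPM in the germinal zones. The 4 erythroid marker arms together reached 327 CPM in VZ_18 replicate 1 and 18.7 to 127 CPM in the remaining libraries. Markers of further cell types also moved with the zones. The 8 myeloid and lymphoid arms summed to 740 to 996 CPM in VZ and 587 to 1189 CPM in OSVZ, above all CP libraries at 441 to 492.7 CPM, with 1 of the 8 at 0 throughout CP. The 7 mesenchymal and mural arms summed to 1410 to 4911 CPM in OSVZ, 923 to 1947 CPM in VZ and 675 to 1083 CPM in CP. Higher in CP were 4 oligodendrocyte arms, at 398 to 766 CPM against 115 to 318 CPM in VZ and 97.5 to 158 CPM in OSVZ. The 3 arms of miR-204 and miR-211, listed as choroid plexus markers, were also higher there. They summed to 4947 to 7253 CPM against 209 to 1952 CPM in VZ and 166 to 957 CPM in OSVZ. Being highest in the cortical plate, these 3 arms cannot be read here as markers of choroid plexus alone. The part of these cell types in the differences between zones was not tested. In pieces of tissue, fewer cells of a type and less RNA per cell cannot be told apart.

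The 95 names held 867865 counts, 0.935% of all counts, and between 0.429% (CP_17 replicate 1) and 1.60% (OSVZ_17int replicate 2) of a library. Most of this sat in few names. The 10 names with the most counts held 76.3% of it, 15 names had at least 10000 counts, and 43 had under 1000. Of the 150 tested arms, 53 had a mean of at least 10 CPM. The median coefficient of variation between libraries, in edgeR's model, was 109% over all 150 tested arms and 78.6% over those 53.

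Age in evolution is not measured by the files, and the name of the group was checked only against lists from general knowledge. The list of names conserved beyond primates held 14 of the 95, with 18.8% of the group's counts. The list of names since assigned to fragments of transfer, small nucleolar or small nuclear RNA held 10, with 19.8% of the counts. Mirtrons were 9 names (3.67%), of which miR-1224 is also on the conserved list, and 4 names were repeat-derived (4.75%). No list held 58 of the names, which had 53.0% of the counts, so for most names these data do not show whether they are recent.

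The highest mean over the 14 libraries belonged to miR-4286-5p, at 584 to 1497 CPM in VZ, 1377 to 2494 CPM in OSVZ and 2170 to 4327 CPM in CP. It was followed by miR-3164-5p, which reached 5226 CPM in set 1 and at most 5.37 CPM in set 2, and by miR-4315-5p at 28.8 to 1635 CPM. Among the other abundant arms that are neither transfer RNA fragments nor repeat-derived, levels were spread more evenly. miR-1180-3p, from an intron of the ciliary gene B9D1 (host genes here are those of the human genome), was at 107 to 865 CPM, and miR-1249-3p, from an intron of KIAA0930, was at 225 to 702 CPM. The 5p arm of miR-1306, which lies in the gene of the Drosha partner DGCR8, was at 120 to 585 CPM. The mirtron miR-1226-3p, an intron of DHX30, was at 95.6 to 269 CPM, and miR-1271-5p, whose seed is that of miR-96, at 81.6 to 339 CPM. None of these last 4 arms was called between zones. All VZ libraries (85.0 to 165 CPM) and all OSVZ libraries (median 149 CPM) of miR-1271-5p nevertheless lay below all CP libraries (215 to 339 CPM). Its log2 difference of VZ against CP was -1.18 ± 0.43 (SE, adjusted p = 0.103), and that of miR-1306-5p for OSVZ against CP was 1.02 ± 0.41 (adjusted p = 0.166).

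**Figure D1:**
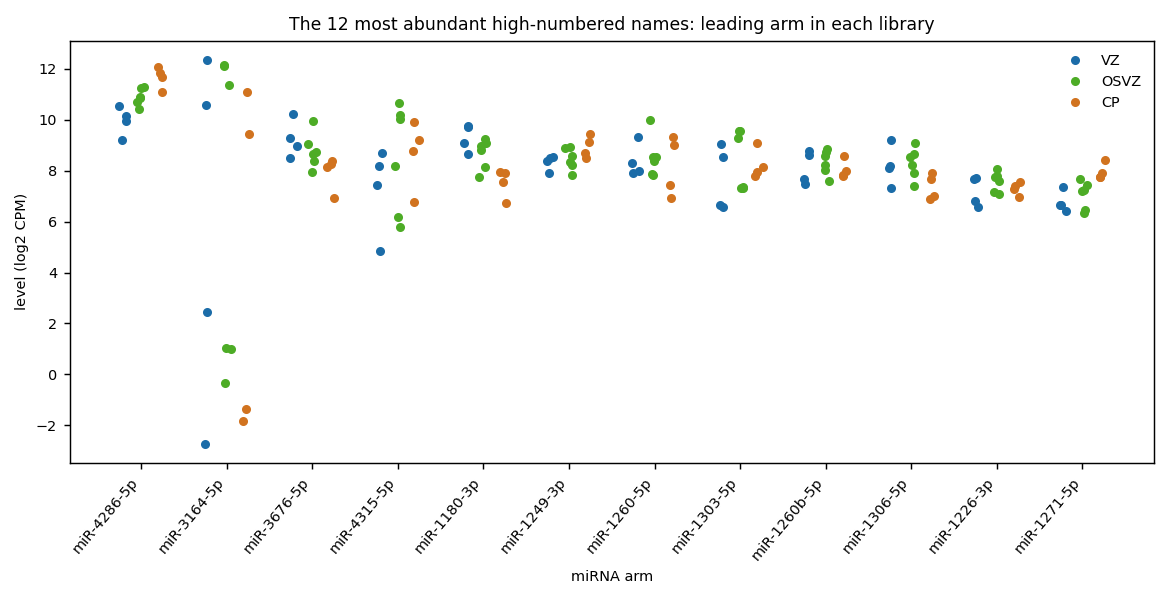
Level (log2 CPM) of the leading arm of the 12 names with the highest mean CPM, with 1 point per library for VZ, OSVZ and CP. Levels of miR-3164-5p split into a high and a low group of 7 libraries each, and miR-4286-5p had all 4 CP libraries above all 4 VZ libraries.

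Among the names since assigned to other RNAs, miR-3676 was the most abundant, a name later given to a transfer RNA fragment. Its 5p arm was at 121 to 1186 CPM and its 3p arm at 56.1 to 503 CPM. A pair of close copies, miR-1260-5p (122 to 1025 CPM) and miR-1260b-5p (179 to 461 CPM), resemble a leucine transfer RNA and may share reads. Fragments of a lysine transfer RNA were counted as miR-1274b-5p, at 20.4 to 383 CPM. A fragment of U2 small nuclear RNA was counted as miR-1246-5p, at 36.7 to 161 CPM in VZ, 31.8 to 205 CPM in OSVZ and 116 to 217.9 CPM in CP. The snoRNA-derived miR-3653-5p was at 16.1 to 56.3 CPM in VZ and 16.0 to 39.8 CPM in OSVZ, below all CP libraries at 56.9 to 90.2 CPM, and did not pass either test (-1.68 ± 0.58 for OSVZ against CP, adjusted p = 0.0899). Of the 15 tested arms of this list, 1 was higher in VZ than in CP, the 5p arm of miR-3676, and 0 were called in any other region comparison with edgeR. Of all 1139 arms, 2.63% were called higher in VZ than in CP, so 1 of 15 is not a result about this list.

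The comparison of VZ with CP asks which miRNAs differ between the layer where radial glia divide and the layer where young neurons settle. Of the 150 arms, 5 were higher in VZ and 3 lower at an adjusted p under 0.05, which is 5.33% where 7.37% of all 1139 arms were called (2.63% higher and 4.74% lower). In OSVZ against CP, 3 arms were higher and 0 lower, 2.0% where 6.32% of all arms were called (2.11% higher and 4.21% lower). Both comparisons share the 4 CP libraries. The median log2 difference over the 150 arms was 0.22 for VZ and 0.27 for OSVZ against CP, beside -0.22 and -0.20 over all arms. Scaling by library totals moved the median of all arms to 0.21 in VZ against CP, to 0.81 in set 2 against set 1 and from -0.23 to -0.46 in area 17 against area 18, so single differences are to be read against shifts of this size. Of the 14 names on the list conserved beyond primates, 3 of 23 tested arms were higher in VZ (miR-1180-3p, miR-1301-3p and miR-1911-3p) and 2 higher in OSVZ, 0 were lower in either, and the median was 0.72 and 0.84. Among these 3 and among the 5 higher arms of the group, miR-1911-3p reached the total that chose the names through its VZ counts. Its call is not evidence of a difference, as given below.

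miR-1180-3p was higher in both germinal zones. It was at 865, 406, 850 and 547 CPM in VZ_17 and VZ_18 of set 1 and then of set 2. In OSVZ it ran from 217 to 612 CPM with a median of 475, and in CP_17 and CP_18 of set 1 and then of set 2 it was at 247, 187, 238 and 107 CPM. All VZ libraries lay above all CP libraries, while the lowest OSVZ library, OSVZ_17int replicate 1, fell within the CP range. The means were 667 ± 227 CPM (SD, n = 4) in VZ, 436 ± 154 CPM (n = 6) in OSVZ and 195 ± 63.9 CPM (n = 4) in CP. The log2 difference was 1.76 ± 0.40 (SE, adjusted p = 0.00277) for VZ and 1.27 ± 0.37 (adjusted p = 0.0311) for OSVZ against CP. The difference in VZ was called under every setting tried. That in OSVZ was lost without the replicate set as a block (adjusted p = 0.0892) and without CP_17 replicate 1 (0.11), CP_17 replicate 2 (0.139), CP_18 replicate 2 (0.218), OSVZ_17ext replicate 1 (0.098), OSVZ_18 replicate 1 (0.187) or OSVZ_17int replicate 2 (0.0779). The 5p arm of miR-1180 held 0.425% of its counts in set 1 and 0.635% in set 2.

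miR-1301-3p, from an intron of the DNA methyltransferase gene DNMT3A, was also higher in both germinal zones than in CP. It was at 226, 113, 178 and 123 CPM in VZ_17 and VZ_18 of set 1 and then of set 2, and at 67.9, 49.8, 40.0 and 48.4 CPM in CP_17 and CP_18 of set 1 and then of set 2. OSVZ libraries ran from 109 to 231 CPM with a median of 141. Neither germinal zone overlapped with CP. The log2 difference was 1.59 ± 0.45 (adjusted p = 0.0216) for VZ and 1.62 ± 0.43 (adjusted p = 0.0144) for OSVZ, and the within-set values lay between 1.46 and 1.75. The VZ call was lost without CP_17 replicate 1 (adjusted p = 0.0674), CP_18 replicate 1 (0.112), CP_17 replicate 2 (0.188), CP_18 replicate 2 (0.0856) or VZ_18 replicate 2 (0.0611). The OSVZ call was lost without any of the same CP libraries (0.0539, 0.0933, 0.163 and 0.0711, in that order) or without OSVZ_18 replicate 1 (0.142).

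miR-4286-5p was lower in VZ. It was at 584, 995, 1497 and 1121 CPM in VZ_17 and VZ_18 of set 1 and then of set 2, and at 2170, 3611, 4327 and 3287 CPM in the matching CP libraries. In OSVZ it ran from 1377 to 2494 CPM with a median of 1879. VZ and CP did not overlap, and OSVZ reached into the range of both. The log2 difference of VZ against CP was -1.69 ± 0.38 (adjusted p = 0.00219), called under every setting tried, whereas OSVZ against CP did not pass (-0.73 ± 0.34, adjusted p = 0.286).

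miR-4271-5p was rare in VZ. It was at 0.860, 1.96, 1.08 and 5.95 CPM in VZ_17 and VZ_18 of set 1 and then of set 2. In CP_17 it was at 8.98 and 10.7 CPM, and in CP_18 at 416 and 78.4 CPM, in set 1 and set 2. The apical sublayer OSVZ_17int had 26.3 and 15.8 CPM, the basal OSVZ_17ext 2.46 and 2.91 CPM, and OSVZ_18 15.8 and 141 CPM. All VZ libraries were thus below all CP libraries, and CP_18 was above CP_17 in both sets. The log2 difference was -4.74 ± 0.78 for VZ against CP (adjusted p = 4.80e-05), called under every setting tried, and 3.61 ± 0.72 for OSVZ against VZ (adjusted p = 0.019). The latter was 1 of 150 arms higher, and the only one of all 1139 (0.0878%). That call was lost without the block (0.283), with DESeq2 size factors (0.0613), with library totals (0.109) and with arms of at least 10 CPM alone (0.0517). It was also lost without CP_18 replicate 1 (0.178), VZ_18 replicate 1 (0.22), OSVZ_18 replicate 2 (0.387) or VZ_18 replicate 2 (0.106).

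The same arm was the one called between areas. miR-4271-5p was lower in area 17 than in area 18, by a log2 difference of -3.31 ± 0.56 (adjusted p = 0.00148), at -2.50 in set 1 and -3.16 in set 2. It was 1 of 150 arms and of all 1139 (0.0878% called). Without its area 18 counts this name, with 3927 counts in all, would have missed the total that chose the group. Its values between areas are therefore a description, and this call is not evidence of a difference. The call was lost without the block (0.0522), with arms of at least 10 CPM alone (0.0561), without CP_18 replicate 1 (0.282) and without OSVZ_18 replicate 2 (0.125), which held the highest level in their zones. Without VZ_17 replicate 1 the number of arms called between areas was 4, with 24 of all arms called, and without VZ_18 replicate 1 it was 2, with 3 of all arms. The next arms by p were miR-3164-5p (-1.40 ± 0.40, adjusted p = 0.157) and miR-1307-3p, of the ATP synthase subunit gene ATP5MK (1.29 ± 0.40, adjusted p = 0.211). The latter was at 98.7 and 97.2 CPM in CP_17 and at 20.8 and 19.04 CPM in CP_18. In VZ it was at 117 and 128.4 CPM in area 17 and 46.8 and 112 CPM in area 18. In OSVZ the 4 libraries of area 17 ran from 113 to 131 CPM and those of area 18 were at 103 and 26.01 CPM. Area 17 was thus above area 18 in every zone without overlap, although the test did not call the difference.

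**Figure D2:**
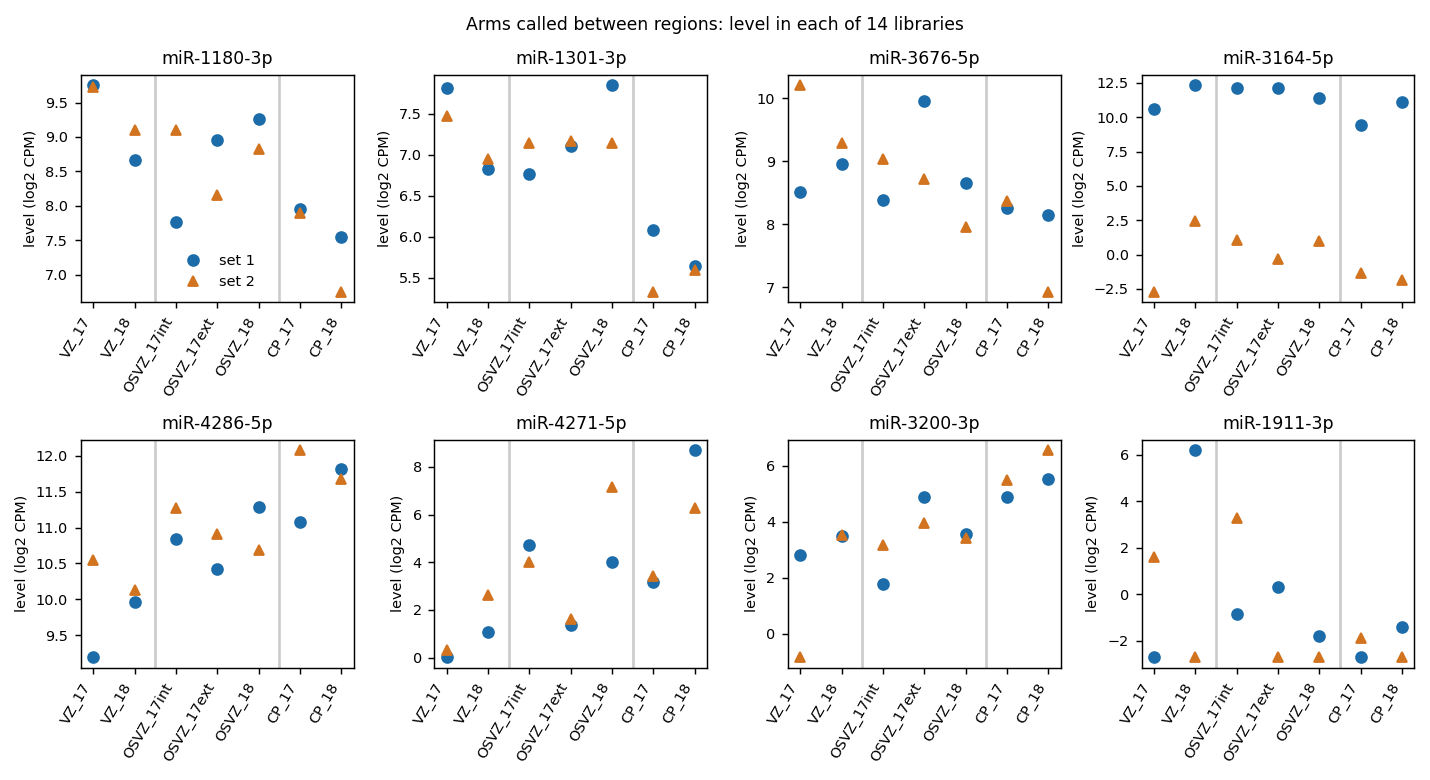
Level (log2 CPM) in each of the 14 libraries of the 8 arms called between zones or areas, by region, with circles for set 1 and triangles for set 2 and vertical lines between VZ, OSVZ and CP. In miR-1301-3p all CP libraries (40.0 to 67.9 CPM) lie below all germinal ones, and in miR-3164-5p the sets lie apart in every region.

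miR-3200-3p, from an intron of OSBP2, was lower in VZ but sparse. It was at 6.88, 10.99, 0.406 and 11.5 CPM in VZ_17 and VZ_18 of set 1 and then of set 2, and at 29.0, 45.6, 44.6 and 93.7 CPM in the matching CP libraries, with no overlap. OSVZ ran from 3.24 to 29.5 CPM with a median of 11.1. The log2 difference of VZ against CP was -3.02 ± 0.91 (adjusted p = 0.034). The call was lost without the block (adjusted p = 0.0691), with DESeq2 size factors (0.0723), with library totals (0.12), with no filter (0.0602) and with both VZ_18 replicate 1 and VZ_17 replicate 2 left out (0.151). It was also lost without CP_17 replicate 1 (0.0686), CP_17 replicate 2 (0.112), CP_18 replicate 2 (0.148), VZ_18 replicate 1 (0.123), VZ_17 replicate 2 (0.183) or VZ_18 replicate 2 (0.0922).

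The 5p arm of miR-3676 was higher in VZ, at 365, 497, 1186 and 628 CPM in VZ_17 and VZ_18 of set 1 and then of set 2 against 307, 284, 331 and 121 CPM in the matching CP libraries. VZ did not overlap with CP, but its lowest library was close to the highest of CP. The log2 difference was 1.39 ± 0.43 (adjusted p = 0.0378), with 0.53 in set 1 and 2.11 in set 2. The other arm, miR-3676-3p, was at 56.1, 142.6, 184 and 136 CPM in VZ and 149, 261, 330 and 158 CPM in CP, in the same order (-0.86 ± 0.43, adjusted p = 0.245). The call of the 5p arm was lost without the block (0.135) and with both VZ_18 replicate 1 and VZ_17 replicate 2 left out (0.0687). Among single libraries it was lost without CP_17 replicate 1 (0.127), CP_17 replicate 2 (0.121), CP_18 replicate 2 (0.251), OSVZ_18 replicate 1 (0.0502), OSVZ_18 replicate 2 (0.0572), VZ_17 replicate 2 (0.192) or VZ_18 replicate 2 (0.0817).

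For 2 further arms higher in VZ, the libraries give a narrower base. miR-3164-5p was at 1545 and 5226 CPM in VZ_17 and VZ_18, at 4477, 4549 and 2638 CPM in OSVZ_17ext, OSVZ_17int and OSVZ_18, and at 694 and 2157 CPM in CP_17 and CP_18 of set 1. In set 2 it was at 0 to 5.37 CPM in every region. VZ overlapped with CP in set 1. The log2 difference was 1.68 ± 0.51 (adjusted p = 0.0349) for VZ and 1.92 ± 0.50 (adjusted p = 0.0116) for OSVZ against CP. Without the block the adjusted p was 0.842 and 0.858. Without VZ_17 replicate 1 the VZ difference was -0.68 (0.578), and the call was lost without CP_17 replicate 1 (0.142), CP_17 replicate 2 (0.0539), CP_18 replicate 2 (0.148) or VZ_18 replicate 2 (0.171). The OSVZ call was lost without CP_17 replicate 1 (0.07), OSVZ_17ext replicate 1 (0.0503), CP_18 replicate 2 (0.0616) or OSVZ_18 replicate 2 (0.0503).

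miR-1911-3p, from an intron of the serotonin receptor gene HTR2C, had 780 of its 801 VZ counts in VZ_18 replicate 1 (72.7 CPM), 21 in VZ_17 replicate 2 (2.84 CPM) and 0 in the other VZ libraries. CP libraries had 0, 1, 1 and 0 counts. All 4 CP libraries were thus near 0, and so were most of VZ. Without its VZ counts this name, with 1178 counts in all, would have missed the total that chose the group. Its values are therefore a description, and its place among the 8 called arms (adjusted p = 0.0468) is not evidence of a difference. The fitted difference was -2.27 (0.68) with both VZ_18 replicate 1 and VZ_17 replicate 2 left out. The call was lost without VZ_18 replicate 1 (0.957), VZ_17 replicate 2 (1.0), OSVZ_17int replicate 2 (0.052) or any CP library (0.112 to 0.197), without the block (0.174), with DESeq2 size factors (0.0579), with library totals (0.0587) and with DESeq2 (0.0898). The library with most of its counts is also the one with the highest erythroid level, whose part in the result was not tested. The other HTR2C miRNA of the group, miR-1298-5p, had its highest level in another library, 189 CPM in VZ_18 replicate 2, against 0 to 30.5 CPM elsewhere. In that library the 3 arms of miR-204 and miR-211 summed to 1952 CPM, against 166 to 957 CPM in the other germinal libraries and 4947 to 7253 CPM in CP. Their part in the level of miR-1298-5p was not tested.

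**Figure D3:**
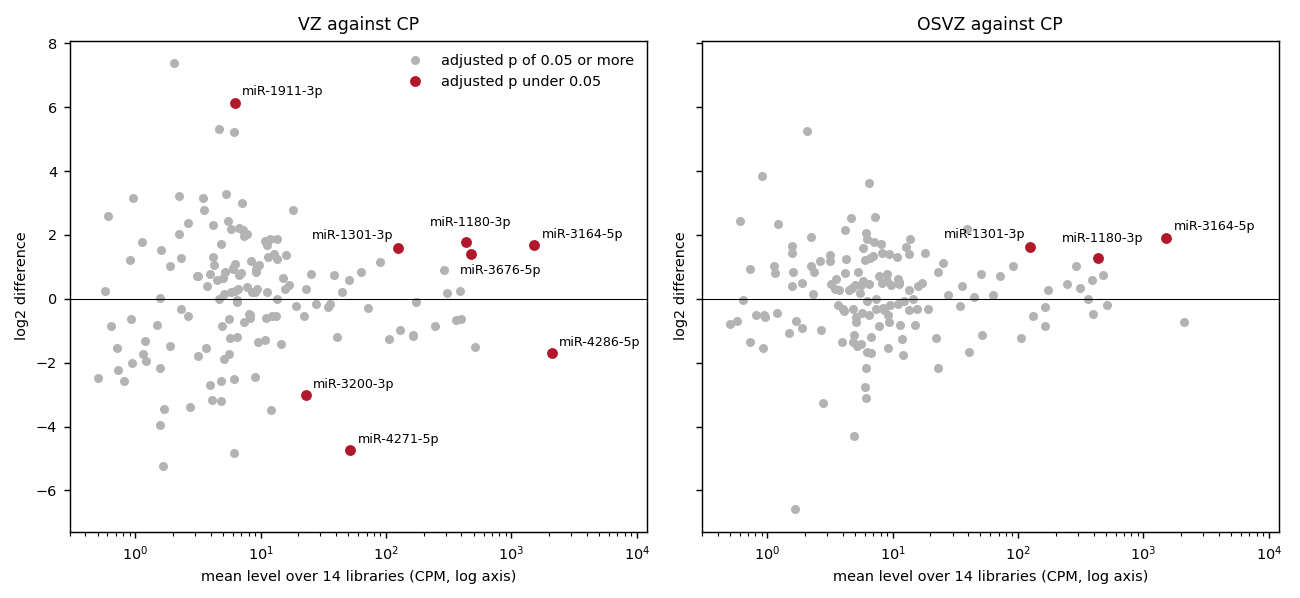
Log2 difference of VZ (left) and OSVZ (right) against CP for the 150 tested arms, by mean level over 14 libraries (CPM, log axis), with called arms in red. Called arms lie mostly at the higher levels, and the widest differences are among arms with few CPM, of which miR-1911-3p was called for VZ.

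Leaving out libraries moved the counts of called arms in both comparisons with CP. For VZ the count of 8 became 4 without CP_17 replicate 1, 3 without CP_17 replicate 2 and 5 without CP_18 replicate 2. Of all arms, 84 called became 61, 53 and 66 in the same order. With VZ_18 replicate 1 and VZ_17 replicate 2 left out together, 9 arms of the group were called, of which 5 were among the 8, with 80 of all arms. For OSVZ the count of 3 became 0 without CP_17 replicate 1 or CP_18 replicate 2, 1 without OSVZ_18 replicate 1 or CP_17 replicate 2, and 6 without VZ_17 replicate 1 or VZ_17 replicate 2. Of all arms, 72 called became 44, 50, 48, 51, 100 and 99 in the same order. With both VZ libraries left out together, 10 arms of the group were called, all 3 included, with 125 of all arms. Without the block, 4 and 1 arms were called, with 53 and 49 of all arms. DESeq2 called 19 and 14, of which 7 and 3 were among the 8 and the 3, with 172 and 129 of all arms. Without the block and with DESeq2, counts over all miRNAs thus moved in the same direction.

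Within the OSVZ of area 17, 0 of the 150 arms and 0 of all 1139 (0% called) differed between the apical and the basal sublayer with edgeR. DESeq2 called 0 of the 150 and 2 of all arms. An unadjusted p under 0.05 was found for 2 of the 150 and for 46 of the 1139. These were miR-4271-5p, higher in the apical sublayer by 3.02 ± 1.01, and miR-1273-3p, an Alu-derived name, at 8.09 and 19.5 CPM in OSVZ_17int and 43.2 and 60.3 CPM in OSVZ_17ext (-2.07 ± 0.89), both with an adjusted p of 0.938. The arm with the next smallest p was miR-2113-3p, at 0.809 and 2.51 CPM in OSVZ_17int and 12.5 and 15.0 CPM in OSVZ_17ext (-3.16 ± 1.62). Each sublayer had 1 library in each set.

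More arms of the group were called between the replicate sets than between zones. Between set 2 and set 1, 8 arms were higher and 9 lower, 11.3% of the 150, where 5.09% of all arms were called (1.67% higher and 3.42% lower). The total that chose the names can be reached through 1 set alone, so this share is not evidence about the group. All names called here except miR-4315 and miR-1303 had under 500 counts in their lower set and owe their place to the other set. Their differences and standard errors are a description, and their calls are not evidence of a difference. Of the 95 names, 9 had over 90% of their counts in set 1 and 13 in set 2. These were not counted over all 828 names and are not a result about the group. With library totals in place of TMM the split was 29 higher and 9 lower, with no filter 14 higher and 13 lower, and DESeq2 called 35 higher and 19 lower, in each case with all 17 included. Of all arms, 115, 82 and 181 were called under these settings, against 58 with TMM and edgeR. Without VZ_18 replicate 1, 14 arms were higher and 12 lower, with 85 of all arms called.

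Set 1 carried a run of names with neighbouring numbers. miR-3164-5p ran from 694 to 5226 CPM in set 1 with a median of 2638, and from 0 to 5.37 CPM in set 2 with a median of 0.646 (-11.6 ± 0.54 on the log2 scale). miR-3165-5p had 14.5 to 86.4 CPM in set 1 and at most 0.508 CPM in set 2 (-8.64 ± 0.89), and miR-3183-5p had 22.8 to 208 CPM and at most 3.74 CPM (-7.52 ± 0.82). The sets did not overlap in any of these. miR-3171-5p (-6.70 ± 0.94), miR-3179-3p (-7.48 ± 1.05), miR-3170-5p (-6.30 ± 1.16) and miR-3180-3p (-4.71 ± 1.13) were lower in set 2 as well. miR-3153-3p had 609 counts in set 1 and 0 in set 2, where a floor of 3 counts over the set makes it at least 229-fold lower. This bound covers counting only, not the scatter between libraries. The only other arm called lower was miR-1323-5p, of the placental C19MC cluster, at 15.2 to 102 CPM in set 1 and 0.508 to 3.39 CPM in set 2. Of the 22 tested arms with a number of at least 3100 and under 3200, 8 were lower in set 2 and 0 higher, with a median of -2.94. Of the 81 arms with a number of at least 1000 and under 2000, 1 was lower and 6 higher, with a median of 1.27. The number ranges were chosen after these values were seen, and differences in annotation between the tables were not tested.

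Set 2 carried other names. Of the arms higher there, miR-4315-5p (28.8 to 585 CPM in set 1, 289 to 1635 CPM in set 2, 2.65 ± 0.47) and the repeat-derived miR-1303-5p (95.4 to 281 CPM and 221 to 763 CPM, 1.69 ± 0.33) were abundant in both, and their sets overlapped. The others had at most 1.62 CPM in set 1, apart from miR-1254-5p with up to 8.66 CPM. They were the mirtrons miR-1227-3p (5.16 ± 1.05), miR-1236-3p (4.92 ± 1.19) and miR-1237-3p (5.42 ± 1.39), and miR-2116-5p (5.08 ± 1.21), miR-1254-5p (3.68 ± 1.11) and miR-1178-3p, which had 879 counts in set 2 and 3 in set 1 (a ratio of 259, 95% interval 88.5 to 1260.05). That interval pools the reads of each set and covers counting only, not the scatter between libraries, which ran from 0 to 62.8 CPM in set 2. Levels of these arms in set 2 were uneven between regions. VZ_17 replicate 2 was highest for all of these except miR-1178-3p, at 63.7 CPM for miR-1227-3p, 74.0 for miR-1236-3p, 60.6 for miR-1237-3p, 39.8 for miR-2116-5p and 67.7 for miR-1254-5p. OSVZ_17int replicate 2 held the top level of miR-1178-3p, 62.8 CPM, and 45.4, 27.0, 30.7, 28.5 and 17.9 CPM of the others in the same order. Over all 95 names, 28 had their highest count in VZ_17 replicate 2, 15 in VZ_18 replicate 1 and 12 in CP_17 replicate 2. These are raw counts, which also follow library size. The same tally was not made over all 828 names, so it is not a result about the group.

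Leaving out OSVZ_17int replicate 2 ended the set calls of miR-1178-3p (adjusted p = 0.0642), miR-1237-3p (0.0817), miR-2116-5p (0.0522) and miR-1236-3p (0.0539). The call of miR-1236-3p also ended with VZ_17 replicate 2 and VZ_18 replicate 1 left out together (0.0507). That of miR-1254-5p (0.0451) ended with DESeq2 size factors (0.0501), with arms of at least 10 CPM alone (0.0581), with the same libraries left out together (0.0507) and without CP_18 replicate 1 (0.0974), OSVZ_17ext replicate 1 (0.105), OSVZ_17int replicate 1 (0.152), OSVZ_18 replicate 1 (0.0551), VZ_17 replicate 1 (0.0514), CP_18 replicate 2 (0.108), OSVZ_17ext replicate 2 (0.117), OSVZ_17int replicate 2 (0.172) or VZ_17 replicate 2 (0.117).

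**Figure D4:**
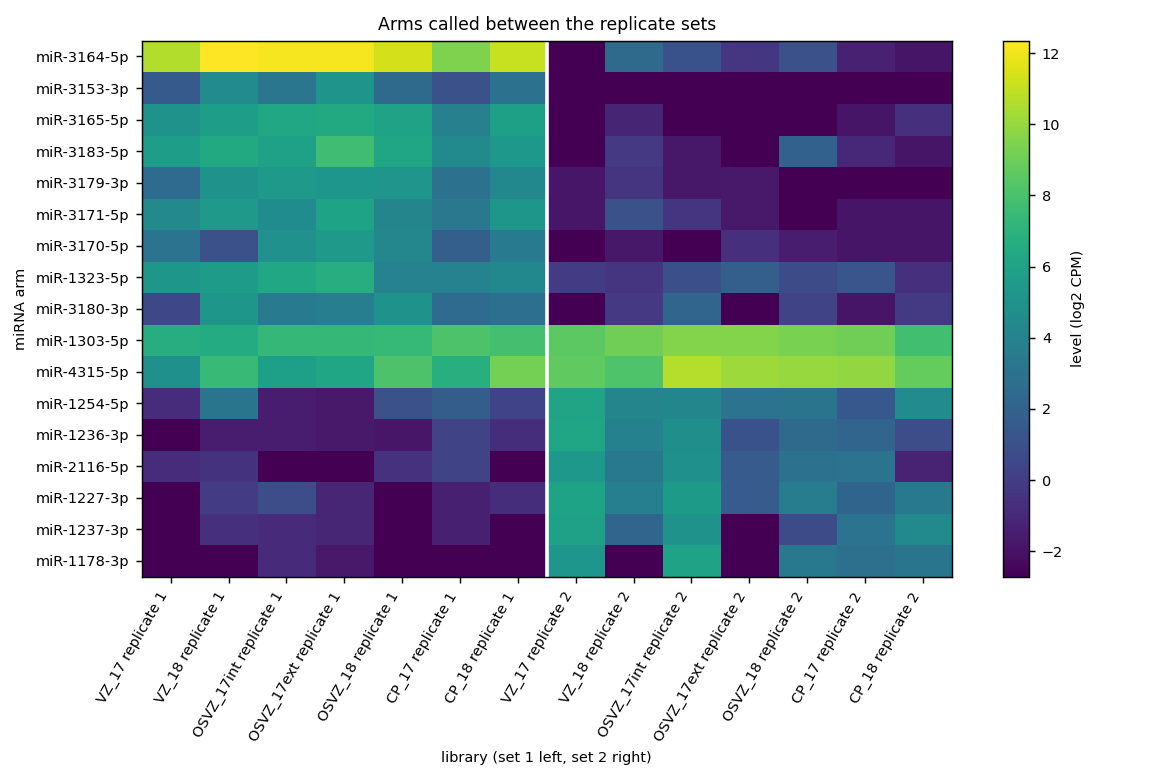
Level (log2 CPM, colour) of the 17 arms called between the sets, in the 7 libraries of set 1 (left of the white line) and of set 2 (right). The arms lower in set 2, from miR-3164-5p to miR-3180-3p, are dark across all 7 libraries on the right, while several arms higher there, such as miR-1236-3p, are brightest in VZ_17 and OSVZ_17int.

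The higher arm was the same in both sets for most names. The 5p arm had more counts in both sets for 51 names, the 3p arm for 28, and the higher arm differed between the sets for 16 names (16.8%). Several of the 16 had few counts in 1 set, so that a few reads decide the higher arm. Examples are miR-3153 with 11 counts in set 2 and miR-1178 with 23 in set 1. The same share was not computed over all 828 names, so 16.8% is not a result about the group. For 27 names the 5p arm held at least 95% in both sets, and for 5 the 3p arm did. miR-1249 kept its 3p arm (5p at 0.0225% in set 1 and 0.151% in set 2), as did miR-1301 (0.10% and 0.345%) and miR-1226 (0.118% and 2.35%), while miR-1296, from an intron of JMJD1C, kept its 5p arm (99.6% and 99.9%). Both arms were counted for miR-3676 (71.9% and 62.6% 5p), miR-1307 (17.7% and 14.7%), the mirtron miR-1234 (97.0% and 65.2%) and miR-1273 (28.0% and 37.6%). Of the 16 names whose higher arm differed, the 5 with the most counts were miR-3183 (99.3% 5p in set 1, 11.2% in set 2), miR-1224, a mirtron of VWA5B2 (36.7% and 64.7%), miR-3175 (57.3% and 20.4%), miR-1254 (40.2% and 86.0%) and miR-3179 (3.32% and 90.3%). For miR-3179 the arm that was lost in set 2 was the 3p arm called above, leaving 65 counts of the 5p and 7 of the 3p arm. None of the 15 names with at least 10000 counts was among the 16.

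**Figure D5:**
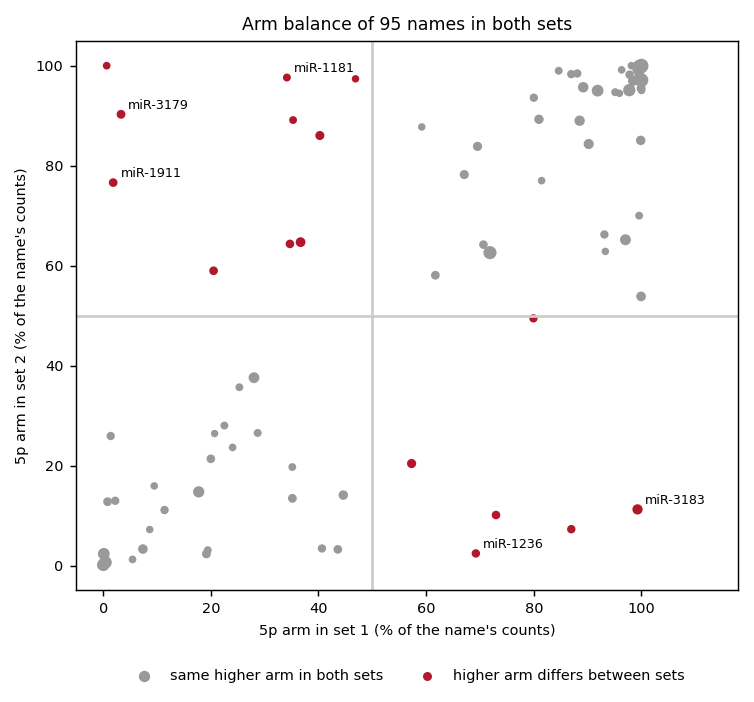
Share of the 5p arm in the counts of each of the 95 names in set 1 (horizontal, %) and set 2 (vertical, %), with larger points for more counts. The 16 names in red have another higher arm in each set, such as miR-3183 at 99.3% and 11.2%, and most large points lie near the lower left or the upper right corner.

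As a description, over the mean log2 CPM of the 7 regions the arms most like miR-4271-5p were miR-1183-5p (Pearson r = 0.909), miR-4315-5p (0.88) and miR-3138-5p (0.824). Those most like miR-3164-5p were miR-3179-3p (0.954), miR-1260-3p (0.875) and miR-3159-5p (0.853). The points share libraries and scaling, and miR-1183-5p (at most 2.06 CPM), miR-1260-3p and miR-3159-5p are rare arms.

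The remaining listed names were rarer. Of the mirtrons, miR-1234-5p was at 14.3 to 185 CPM, miR-1224-5p at 0.607 to 79.99 CPM and miR-3605-5p at 3.03 to 41.8 CPM. Of the repeat-derived names, miR-1273-3p was at 8.09 to 114 CPM and miR-1268-5p at 0.135 to 18.0 CPM. Zones overlapped in all of these arms. miR-3065-3p, from the strand opposite the oligodendrocyte miRNA miR-338, was at 0 to 18.0 CPM, and miR-3074-3p, opposite miR-24, at 0.932 to 29.0 CPM. None of the 4 antisense arms, the 8 repeat-derived arms, the 17 mirtron arms or the 1 C19MC arm was called between zones or areas with edgeR. Of all 1139 arms, 7.37% were called in VZ against CP and 6.32% in OSVZ against CP. In OSVZ against VZ and between areas 0.0878% were called. With so few arms per list, 0 calls is not a result about these lists. In the HTR2C pair, 1 of 4 arms was called, miR-1911-3p, whose call is not evidence of a difference, as given above.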

How the data were processed

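Per the labels' protocols, RNA of laser-cut regions was isolated with a Qiagen kit and size-selected libraries were made for SOLiD sequencing. The authors deposited raw counts per miRNA name and arm. The aligner, genome build, annotation and handling of reads that match several loci are not given in the sources used here. Near-identical names may therefore share reads. Columns were assigned to set 1 or set 2 by the spelling of regions and the regions held. A further 12 value columns match no label and were not used, so a design written for 20 samples was fitted to 14.

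Names in both tables gave 1656 arms. The 1139 left by filterByExpr (by region) were tested after TMM scaling in edgeR 4.0.16 (R 4.3.3, quasi-likelihood F test, Benjamini-Hochberg over all 1139) on region means with the set as a block. OSVZ was the mean of OSVZ_18 and of the mean of both sublayers. Levels are TMM-scaled CPM. Log2 levels used a prior count of 1. Each SE is the absolute log2 difference divided by the square root of its F statistic, and was not estimated separately. The script was tested on simulated data. The set was kept as a block since each number has its own embryonic day in the labels. For each of 21 pairs of regions, deviations of same-set libraries from their region means were correlated across arms. The median r was 0.284, the range 0.0249 to 0.533, and 20 were above 0.1. Alternatives were no block, DESeq2 1.42.0, other scalings, other filters and leaving out libraries. The members, lists and tests were chosen with earlier results of these data known. The arms named were those called in each comparison (or the 3 with the smallest p), the 12 most abundant names, leading members of each list, names near the threshold and names whose higher arm differs. No sequences are shown.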

Additional observations from a re-analysis of the deposited data

Results flagged for a closer look

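Within zones or sets, a library was marked when it lay far from the others of its group by Dixon's test on CPM. This was run on 81 groups of the called and most abundant arms, and marked 19. The test's rate of about 1 in 20 holds for normal values of 1 population. These groups mix areas, sublayers, zones or sets, and the arms were chosen as called or abundant. The number marked is therefore not evidence of an excess. Some marks rest on few counts, such as that of miR-1178-3p, with 3 counts in set 1. Between zones, these were miR-1260-5p in OSVZ_18 replicate 2 (1025 CPM, next 376), miR-1301-3p in OSVZ_18 replicate 1 (231 CPM, next 144.2) and miR-3676-5p in OSVZ_17ext replicate 1 (995 CPM, next 524). miR-1911-3p was marked in VZ_18 replicate 1 (72.7 CPM, next 2.84) and OSVZ_17int replicate 2 (9.61 CPM, next 1.08), and miR-4271-5p in OSVZ_18 replicate 2 (141 CPM, next 26.3) and CP_18 replicate 1 (416 CPM, next 78.4).

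Within set 2, VZ_17 replicate 2 was marked for miR-1236-3p (74.0 CPM, next 27.0) and miR-1254-5p (67.7 CPM, next 23.1), and VZ_18 replicate 2 for miR-3164-5p (5.37 CPM), miR-3171-5p (1.89 CPM) and miR-3179-3p (0.581 CPM). OSVZ_17int replicate 2 was marked for miR-3180-3p (4.43 CPM), OSVZ_17ext replicate 2 for miR-3170-5p (0.485 CPM) and OSVZ_18 replicate 2 for miR-3183-5p (3.74 CPM). Within set 1, OSVZ_17ext replicate 1 was marked for miR-3183-5p (208 CPM, next 85.3), VZ_18 replicate 1 for miR-1254-5p (8.66 CPM), CP_17 replicate 1 for miR-1236-3p (1.15 CPM) and OSVZ_17int replicate 1 for miR-1178-3p (0.405 CPM).

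The difference between zones was also compared between areas 17 and 18. With edgeR, 0 of the 150 arms were called for VZ against CP (6 at an unadjusted p under 0.05) and 0 for OSVZ against CP (3), where 1 and 0 of all 1139 arms were called.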

How the results depend on the processing

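Counts of called high-numbered arms moved with the setting. Without the replicate block they were 4 for VZ against CP (main count 8), 1 for OSVZ against CP (3), 0 for OSVZ against VZ (1) and 0 between areas (1). Of all arms, 53, 49, 0 and 0 were called there. DESeq2 called 19, 14, 4 and 2 in the same order, and 54 between sets (17), where it called 172, 129, 27, 18 and 181 of all arms. OSVZ against VZ gave 0 with DESeq2 size factors, with library totals and with arms of at least 10 CPM, as it did over all arms. Areas gave 0 with the last of these and 2 with no filter, with 0 and 11 of all arms. The sets gave 38 with library totals and 27 with no filter, with 115 and 82 of all arms. With VZ_18 replicate 1 and VZ_17 replicate 2 left out together, a setting chosen after seeing the data, the counts were 10 for OSVZ against CP, 2 for OSVZ against VZ and 2 between areas. Of all arms, 125, 2 and 3 were called there. Leaving out single libraries gave 3 to 11 for VZ against CP, 0 to 6 for OSVZ against CP and 0 to 1 for OSVZ against VZ. It gave 0 to 4 between areas and 12 to 26 between sets. For the sublayers no count is given, since leaving out a library of a sublayer leaves it with 1. Over all arms, leaving out single libraries gave 53 to 120 for VZ against CP, 44 to 100 for OSVZ against CP and 0 to 24 for OSVZ against VZ. It gave 0 to 24 between areas and 29 to 85 between sets. Of the values of named arms under these settings, 578 kept their side of the threshold, 87 lost the call and 2 turned sign. These were miR-1911-3p with both VZ libraries left out (-2.27) and miR-3164-5p in VZ against CP without VZ_17 replicate 1 (-0.68, where leaving out single libraries gave -0.68 to 2.65). The cause was not tested. Arms of a few CPM are limited by depth and spread, so a missing call does not show that they are alike.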
